A study of Homo sapiens with 6 samples.

Results

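The genes described here make and handle sterols and fatty acids, with the transcription factors that control them. A list of 45 such genes was read on 6 HG-U133 Plus 2.0 microarrays, and 40 of the 45 had a probeset whose annotation gave that single gene symbol. They are 40 of the 19775 genes that could be read in this way. Where a gene had several such probesets (a probeset is the group of short probes that measures a transcript), the brightest over the 6 arrays stood for it. The arrays hold RNA of EJ cells, a bladder cancer line that the study treats together with T24. 3 arrays are of cells transfected with FOXA1, a forkhead transcription factor, and 3 are of control cells transfected with the empty pUC19 plasmid. The cells of all 6 arrays share the line, a serum-containing medium and lipid-based transfection, and neither labels nor methods mention a selection of transfected cells. The labels do not say that the arrays come from separate cultures, although the methods give transfections in triplicate, so the p-values below measure only the spread between these arrays. In bulk RNA, a change in every cell and a change in a share of the cells cannot be told apart.

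Cells build cholesterol from acetyl-CoA by way of mevalonate and squalene, and fatty acids from the same precursor by way of malonyl-CoA. Both routes are controlled by the sterol regulatory element binding proteins (SREBPs), which are held in the endoplasmic reticulum by SCAP and the INSIG proteins when sterols are plentiful, and which are cut and move to the nucleus when sterols run low. SREBP-2, the product of SREBF2, chiefly drives cholesterol genes, and SREBP-1, the product of SREBF1, chiefly drives fatty acid genes. Enzymes of a route that is under SREBP control therefore usually move together, and tumour cells often run both routes at a high level to build membranes.

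Values are signals, the linear measure of brightness that the MAS5 software gives each probeset, and differences are log2 signals of FOXA1 transfected minus control cells. These directions come from the sample labels and run opposite to those the study gives for every probeset of its own list of changed genes. Whether the labels or the study's directions are turned is not settled here. FOXA1 itself read 38.9, 34.8 and 31.9 on the FOXA1 arrays, against 21.8, 24.4 and 21.0 on the control arrays. At this brighter of its probesets every FOXA1 array lay above every control array, with a log2 difference of 0.65 (SE 0.23, limma adjusted p = 0.307, and exact two-sided permutation p = 0.1, the smallest that 3 against 3 arrays can give). Of all genes, 12.5% were likewise higher without overlap. The dimmer probeset differed by -0.54 with overlapping groups, and no source read here says whether either lies inside the transfected construct. Median signals ranged from 14.4 to 17.5 on the FOXA1 arrays and from 12.3 to 16.1 on the control arrays. The ratio of 3′ to 5′ signal of ACTB, a measure of RNA integrity, was 2.37 ± 0.228 on the FOXA1 arrays and 1.73 ± 0.188 on the control arrays (SD, n = 3 each), without overlap. Of the epithelial keratins, KRT18 read 2358.5 to 2543.9 on the FOXA1 arrays and 2080.4 to 2405.1 on the control arrays, whereas KRT19 stayed at or under 2.1 on every array. The 4 uroplakins, which define differentiated urothelium, summed to 34.5 to 46.5 on the FOXA1 arrays and 16.2 to 37.9 on the control arrays and were thus low in both groups for a line of urothelial origin. UPK1B among them was higher on all FOXA1 arrays (25.3 ± 5.15, against 14.9 ± 4.63 on the control arrays), as was KRT7 (27.4 ± 5.52, against 21.0 ± 2.70). Their limma adjusted p were 0.420 and 0.650. For UPK1A, UPK2, UPK3A, KRT8, KRT18 and KRT19 the groups overlapped. CDH2, the mesenchymal N-cadherin, was lower on all FOXA1 arrays (362 ± 30.9, against 495 ± 36.4 on the control arrays, SD, n = 3 each). Its difference was -0.45 (limma adjusted p = 0.118). VIM, the other mesenchymal marker read, did not follow CDH2. Its groups overlapped (4068 ± 508 on the FOXA1 arrays, against 3836 ± 238 on the control arrays), with a difference of 0.08. Both other lipid-rich cell types were near the floor, with the 3 adipocyte markers summing to 24.8 to 54.5 on the FOXA1 arrays and 28.8 to 44.4 on the control arrays, and the 3 hepatocyte markers to 19.3 to 53.4 on the FOXA1 arrays and 19.3 to 39.5 on the control arrays.

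No lipid gene passed the threshold. With limma and Benjamini-Hochberg adjustment over all 54613 probesets (adjusted p under 0.05), 0 of 40 genes were called, and the lowest adjusted p was 0.150, that of DHCR7. Of all probesets, 0.0385% were called higher and 0.0201% lower, so calls were rare throughout. At an unadjusted p under 0.05, 5 of the 40 were higher (SREBF2, DHCR7, FASN, FABP4 and FABP5), which is 12.5% beside 9.07% of all genes, and 0 were lower beside 5.49% of all genes. A SAM-type statistic called 3 probesets in the whole table, limma without an intensity trend called 1, and neither called a lipid gene. A difference above 0 was found for 21 of the 40 genes and below 0 for 19, that is 52.5% above, beside 59.2% of all genes. Their median difference was 0.01, beside 0.07 over all genes.

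Within the main fit, whose intervals do not cover the choice of scaling, the measurements were tight enough to bound most of these differences. For 31 of the 40 genes the 95% interval of the ratio lay within 1.5-fold of equal signal in either direction, for 35 within 2-fold, and for 34 the difference itself lay within 0.25 of 0 on the log2 scale. 37 genes were brighter than 14, which is 4 times the 20th percentile of all signals, and their standard errors ranged from 0.0717 to 0.596 with a median of 0.102. ABCA1, ABCG1 and FABP4 were at or under that level and had standard errors of 0.632 to 0.774, and the 95% interval of the ratio of ABCG1, the widest, ran from 0.351 to 3.73.

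**Figure D1:**
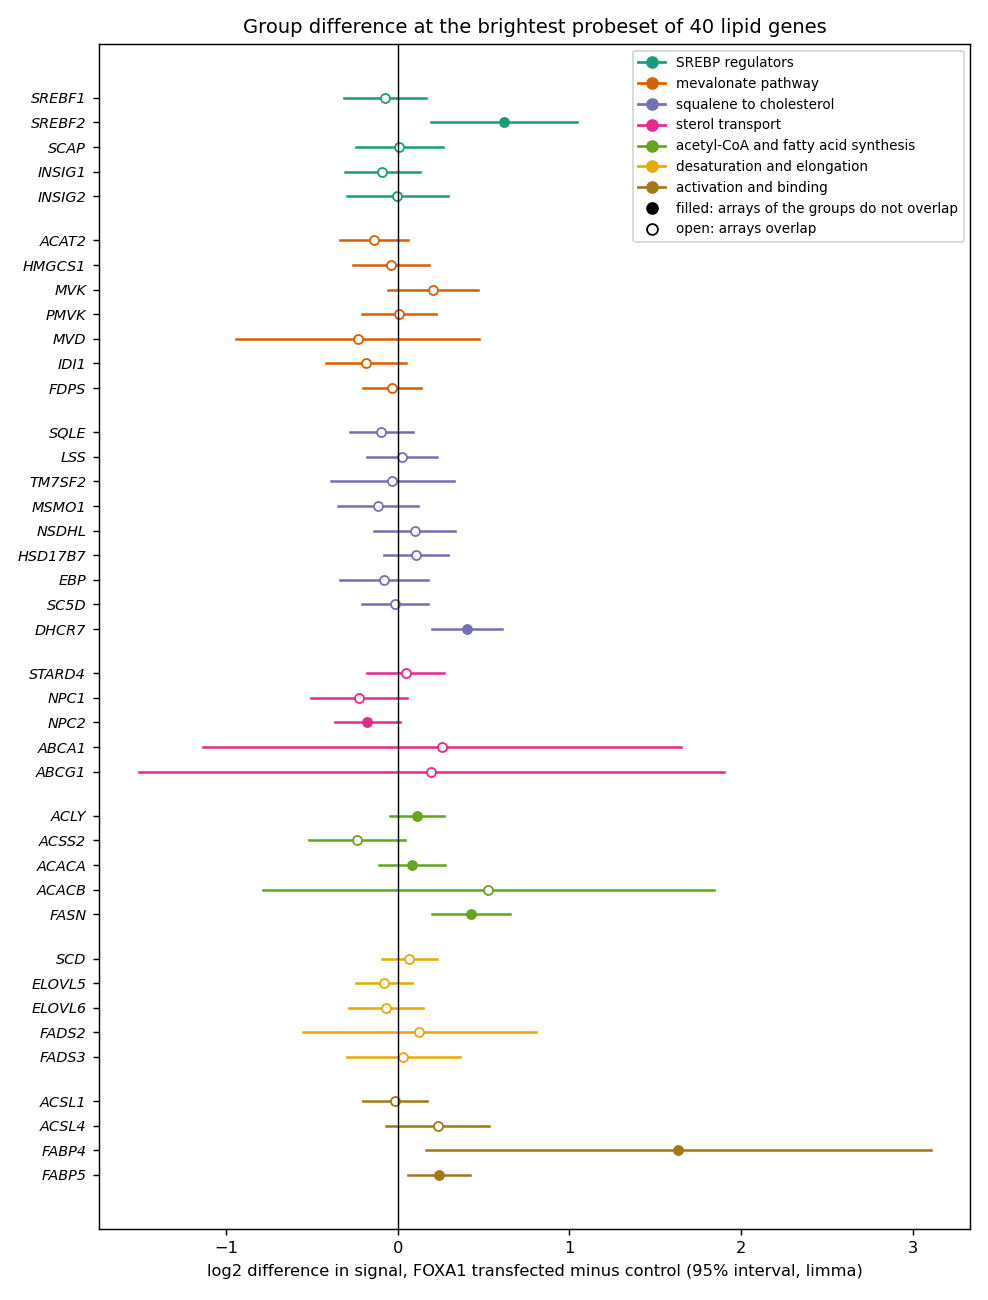
Log2 difference in signal (x axis, FOXA1 transfected minus control) with its 95% interval from limma for 40 lipid genes in order of role, where filled points mark genes whose arrays do not overlap between the groups. Most intervals cross 0 and are narrow, and the widest are those of ABCA1, ABCG1, ACACB and FABP4.

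The arrays of both groups did not overlap for 8 genes. 7 were higher on all FOXA1 arrays (SREBF2, DHCR7, FASN, ACLY, ACACA, FABP4 and FABP5), which is 17.5% of the 40, beside 12.5% of all genes. NPC2 alone was lower on all FOXA1 arrays, which is 2.5% of the 40, beside 7.25% of all genes. Among genes brighter than 14 the background was 14.7% higher and 10.3% lower without overlap, with 56.5% of differences above 0, against 6 higher, 1 lower and 18 above 0 of the 37 lipid genes of that brightness. The count that was higher is thus near the background. ACTB 3′ to 5′ ratios, CDH2, KRT7 and UPK1B also separated the groups, as given above. The endothelial marker PECAM1 was likewise higher on all FOXA1 arrays (49.9 ± 6.32, against 36.2 ± 5.86 on the control arrays, SD, n = 3 each). CDH5, the other endothelial marker, stayed at or under 5.4 on every array. The part of any of these in the differences of the lipid genes was not tested.

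**Figure D2:**
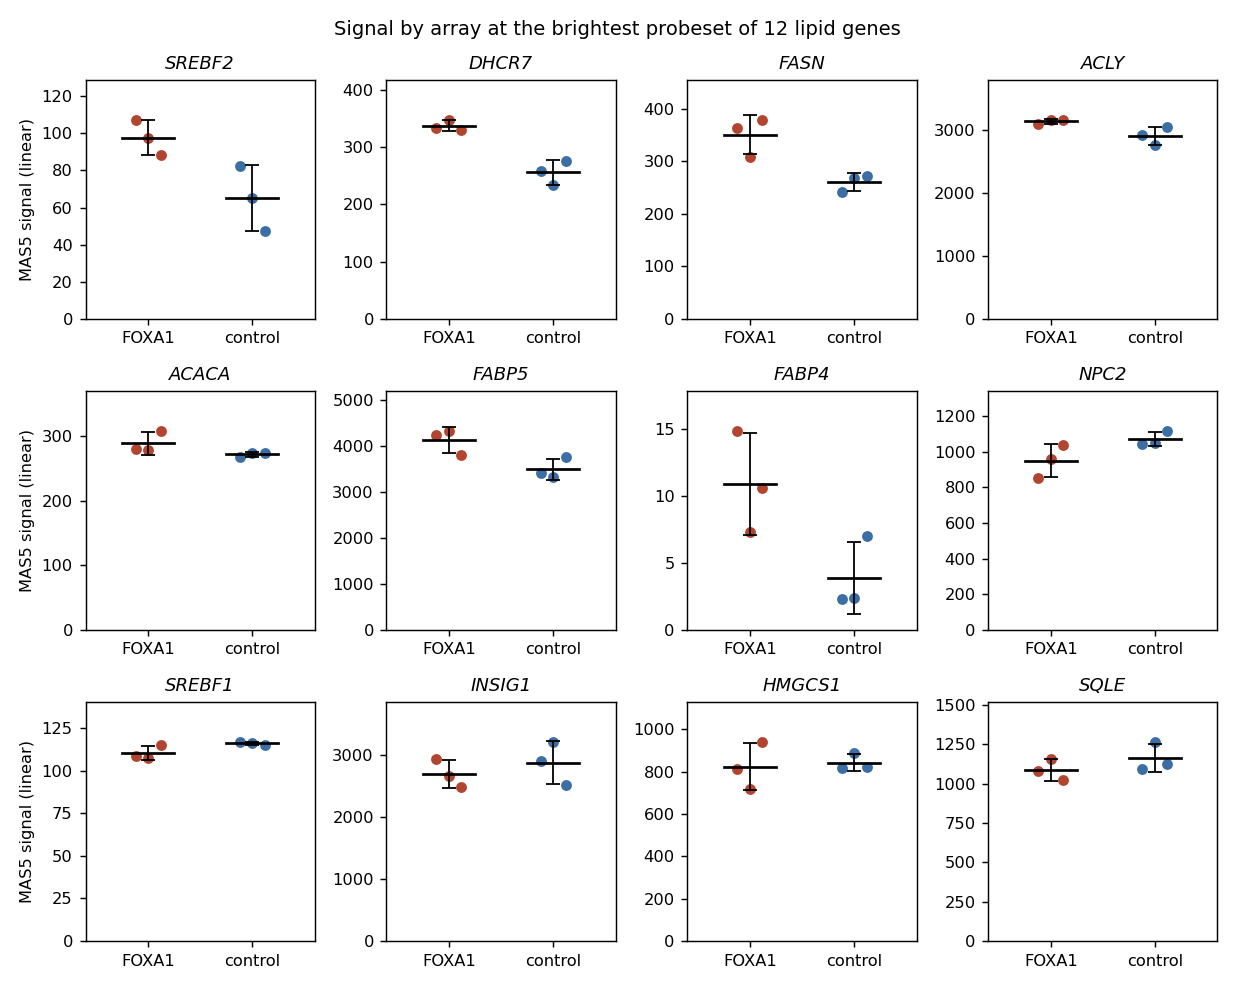
MAS5 signal (y axis, linear from 0) on each array for 12 lipid genes, with FOXA1 arrays in red left of control arrays in blue, and the group mean (horizontal bar) with its SD. The FOXA1 points of SREBF2, DHCR7, FASN, ACLY, ACACA, FABP5 and FABP4 all lie above the control points, those of NPC2 all below, and those of SREBF1, INSIG1, HMGCS1 and SQLE mix with them.

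Of the 5 SREBP regulators, SREBF2 alone had groups without overlap at the probeset that stood for it. SREBF2 read 107.5, 97.3 and 88.5 on the FOXA1 arrays, against 82.6, 65.3 and 47.4 on the control arrays. All FOXA1 arrays were higher, although the lowest of them lay close to the highest control array and the control arrays spread widely. The difference was 0.62 (SE 0.19, a ratio of 1.54 with a 95% interval of 1.15 to 2.06), with an adjusted p of 0.263. A further probeset of SREBF2 read 75.9, 74.6 and 72.9 on the FOXA1 arrays and 61.5, 53.5 and 57.5 on the control arrays, again without overlap (difference 0.38, adjusted p = 0.335). The last of its 3 probesets overlapped and differed by -0.12. SREBF1 overlapped at its brightest probeset, where its signals were 108.8, 107.3 and 115.3 on the FOXA1 arrays and 116.9, 116.3 and 115.2 on the control arrays, a difference of -0.07 (SE 0.11, adjusted p = 0.847), with the highest FOXA1 array just above the lowest control array. A dimmer SREBF1 probeset differed by 0.94 with overlap, from 10.2, 30.4 and 27.1 on the FOXA1 arrays and 18.3, 9.8 and 6.7 on the control arrays. With the median over a gene's probesets in place of the brightest, SREBF1 differed by 0.43 and SREBF2 by 0.47, so that a contrast between them rests on the choice of probeset. The annotation does not tie either probeset to an SREBP-1 isoform here.

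INSIG1, which holds SCAP in the endoplasmic reticulum and is itself a strong SREBP target, showed no such separation. It read 2928.3, 2658.7 and 2482.9 on the FOXA1 arrays, against 2892.0, 3206.6 and 2515.9 on the control arrays, a difference of -0.09 (SE 0.10, adjusted p = 0.782) with full overlap. Its other probesets were lower as well, by -0.17 with overlap and by -0.40 without, the last reading 418.5, 442.1 and 367.8 on the FOXA1 arrays and 445.3, 632.9 and 549.7 on the control arrays (adjusted p = 0.267). SCAP, the escort of the SREBPs, differed by 0.01 and INSIG2 by -0.00.

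SREBPs bind the sterol regulatory element, for which the letters TCACNCCAC (N is any base) were searched on both strands, and they usually work beside NF-Y at a CCAAT box and Sp1 at a GC box. RefSeq promoters (GRCh38.p14, from 250 bases before to 50 after each gene's start) were found for 34 of the 40 genes. TCACNCCAC stood in promoters of SREBF2 and ACSL1, that is in 2 of 34 genes, or 3.92% of their 51 promoters, beside 1.13% of all 35116 promoters. Only this form was searched, and only in this window, so a gene without it may still hold a sterol regulatory element. ACSL1 had promoters at different starts, and the match lay only in the promoter whose stretch is printed below. The CCAAT letters stood in 26 of the 34 genes, or 58.8% of their 51 promoters, beside 34.6% of all promoters, and in all 5 of the non-overlapping genes that had a promoter entry. The GC box letters GGGCGG stood in 32 of 34 genes, or 82.4% of their 51 promoters, beside 45% of all promoters. No match of any of these motifs in the lipid genes overlapped a match of another. The stretch of SREBF2 is shown because it is the regulator with the highest difference, and that of ACSL1 because it holds the same letters on the opposite strand of a gene that differed by -0.02, with the match to TCACNCCAC in capitals. SREBF2 lies on the plus strand (chr22:41832947-41833006) and ACSL1 on the minus strand (chr4:184805744-184805803), and both are printed in the direction of the gene.
SREBF2: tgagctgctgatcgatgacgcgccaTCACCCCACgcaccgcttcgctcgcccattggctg
ACSL1: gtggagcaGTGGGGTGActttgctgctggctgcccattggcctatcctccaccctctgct
In both stretches a CCAAT box on the opposite strand follows the match, at 106 bases before the start in SREBF2 and 215 in ACSL1.

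The 7 enzymes of the mevalonate pathway showed no shared direction, with 2 above 0, 5 below and a median difference of -0.04. HMGCS1, the cytosolic synthase that makes HMG-CoA and a classical SREBP-2 target, read 813.6, 717.7 and 941.3 on the FOXA1 arrays, against 815.4, 887.9 and 824.6 on the control arrays. The FOXA1 arrays held both the lowest and the highest value, and the difference was -0.04 (SE 0.10, a ratio of 0.973 with a 95% interval of 0.835 to 1.13). ACAT2, the thiolase that makes acetoacetyl-CoA, read 1695.6, 1593.0 and 1786.4 on the FOXA1 arrays and 1744.3, 1749.3 and 2101.5 on the control arrays, a difference of -0.14 (adjusted p = 0.613). Here 1 FOXA1 array exceeded 2 of the control arrays. MVK, which phosphorylates mevalonate, read 196.3, 161.9 and 171.7 on the FOXA1 arrays and 135.1, 156.8 and 168.3 on the control arrays (0.20, adjusted p = 0.561), and 2 of its FOXA1 arrays lay above all control arrays. A dimmer MVK probeset went the other way without overlap, by -0.46 (limma adjusted p = 0.430). It read 29.9, 37.0 and 31.3 on the FOXA1 arrays and 44.5, 38.2 and 52.9 on the control arrays. The remaining MVK probesets differed by 0.18 and, near the floor, by 1.64, both with overlap. IDI1, the isomerase of isopentenyl diphosphate, read 916.0, 994.9 and 788.3 on the FOXA1 arrays and 897.8, 1083.7 and 1086.0 on the control arrays (-0.19, adjusted p = 0.550). It was read by a probeset of the _x_at class, which can bind near-identical transcripts, and its highest FOXA1 array passed only the lowest control array. A further IDI1 probeset of this class, of similar brightness, differed by -0.28 with overlap (limma adjusted p = 0.310). The dimmer IDI1 probesets differed by 0.04 and -0.20, also with overlap. Of the others, PMVK (phosphomevalonate kinase) and FDPS (farnesyl diphosphate synthase) differed by 0.01 and -0.03. MVD, the decarboxylase of the pathway, differed by -0.23 (SE 0.32), with 1 FOXA1 array at 16.7 and the others at 40.3 and 39.7, against 34.5, 35.5 and 35.3 on the control arrays.

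Of the 11 enzymes between squalene and cholesterol 9 were read, with 4 positive and 5 negative differences and a median of -0.01. CYP51A1 had only probesets shared with other symbols, and FDFT1 was not analysed here. SQLE, the monooxygenase that acts on squalene, read 1082.3, 1160.3 and 1021.6 on the FOXA1 arrays, against 1096.1, 1266.5 and 1125.0 on the control arrays. The groups overlapped, and the difference was -0.09 (SE 0.08, a ratio of 0.937 with a 95% interval of 0.823 to 1.07). Dimmer SQLE probesets differed by 0.01 and -0.20 with overlap. The dimmest was lower on all FOXA1 arrays, with a difference of -0.51 (limma adjusted p = 0.505). HSD17B7, a 3-ketosterol reductase read only by an _x_at probeset, gave 567.8, 515.4 and 599.1 on the FOXA1 arrays and 508.0, 545.5 and 507.6 on the control arrays (0.11, adjusted p = 0.685), with the groups overlapping. The other enzymes ranged from -0.11 for MSMO1, the C4 methylsterol oxidase, to 0.10 for NSDHL, the dehydrogenase of the same demethylation. LSS (lanosterol synthase), TM7SF2 (a sterol reductase), EBP (the sterol isomerase) and SC5D (a sterol desaturase) lay between them.

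DHCR7, which catalyses the last reduction to cholesterol from 7-dehydrocholesterol, was the exception among the sterol enzymes at their brightest probesets. It read 334.0, 348.7 and 331.1 on the FOXA1 arrays, against 258.5, 233.7 and 276.7 on the control arrays. All FOXA1 arrays were higher, with a group SD of 9.44 on the FOXA1 arrays and 21.6 on the control arrays (n = 3 each). The difference was 0.40 (SE 0.09), a ratio of 1.32 with a 95% interval of 1.15 to 1.52, yet the adjusted p of 0.150 missed the threshold. Its second probeset read 232.8, 238.9 and 195.1 on the FOXA1 arrays and 202.8, 200.8 and 202.1 on the control arrays, so that 1 FOXA1 array lay below all control arrays and the difference was 0.13. A stretch of the DHCR7 promoter (chr11:71448455-71448514, minus strand, in the direction of the gene) is shown as an example of the CCAAT letters, in capitals, that most of these genes share. TCACNCCAC was not in the window.
DHCR7: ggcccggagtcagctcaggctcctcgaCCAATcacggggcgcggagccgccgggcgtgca
Taking the 16 sterol enzymes of both stages as 1 group, 6 differences were positive and 10 negative, and their median was -0.03. For 14 of the 16 the 95% interval of the ratio lay within 1.5-fold of equal signal. The median deviation of the 16 genes from their own means was -0.04, 0.02 and 0.04 on the FOXA1 arrays and -0.06, -0.00 and 0.04 on the control arrays, so that neither group stood above the other.

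**Figure D3:**
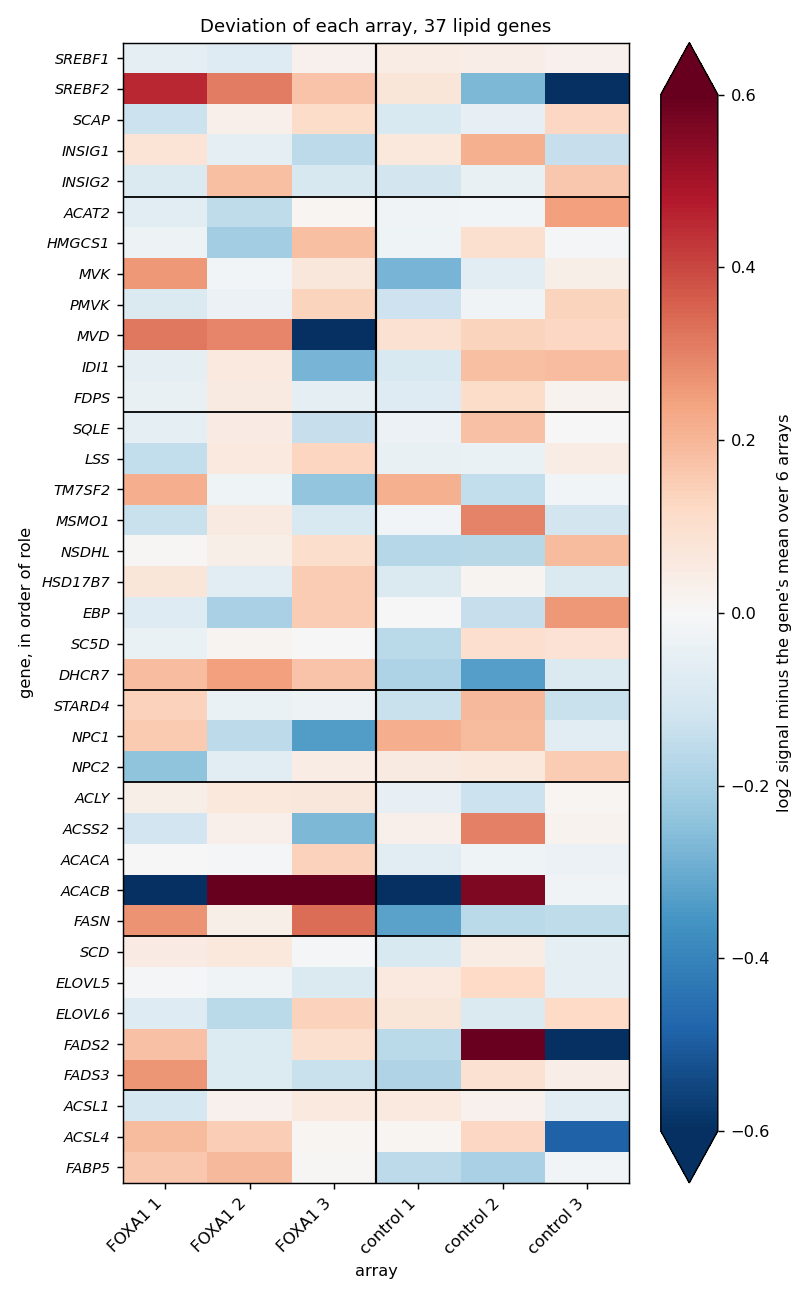
Log2 signal on each array minus the gene's mean over the 6 arrays (colour, red higher and blue lower), for the 37 lipid genes brighter than 14 in order of role (rows, with lines between roles), FOXA1 arrays left of control arrays. Rows of SREBF2 and DHCR7 are red on all FOXA1 arrays. Those of FASN, ACLY, NSDHL, ACSL4 and FABP5 are also above 0 on all FOXA1 arrays, some of them only faintly, while most other rows mix both colours in both groups.

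Among the 5 genes of sterol transport, only NPC2 was without overlap. NPC2 hands cholesterol to NPC1 in the lysosome, and its signals were 852.0, 961.0 and 1037.7 on the FOXA1 arrays, against 1043.9, 1050.7 and 1118.4 on the control arrays. All FOXA1 arrays were lower, the nearest by a small step, and the difference was -0.18 (SE 0.09, adjusted p = 0.479). NPC1, the lysosomal membrane partner, read 594.8, 477.4 and 422.3 on the FOXA1 arrays and 619.2, 609.0 and 507.9 on the control arrays (-0.23, adjusted p = 0.540), where 1 FOXA1 array exceeded the lowest control. STARD4, a soluble sterol carrier and SREBP-2 target, read 851.0, 753.8 and 758.3 on the FOXA1 arrays and 706.3, 886.7 and 706.5 on the control arrays (0.05, adjusted p = 0.907), with the highest value in the control group. The exporters ABCA1 and ABCG1, which liver X receptors induce when sterols are in excess, were near the floor. ABCA1 read 3.7 to 12.4 on the FOXA1 arrays and 4.9 to 8.2 on the control arrays, and ABCG1 read 4.4 to 20.3 on the FOXA1 arrays and 2.9 to 11.3 on the control arrays.

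Of the 5 genes that make acetyl-CoA and fatty acids, 4 lay above 0, and the median was 0.11. FASN, the synthase that builds palmitate, read 362.9, 308.1 and 379.2 on the FOXA1 arrays, against 240.5, 268.8 and 270.9 on the control arrays. Every FOXA1 array was higher, with a difference of 0.43 (SE 0.10), a ratio of 1.34 with a 95% interval of 1.15 to 1.57, and an adjusted p of 0.168. Its only other probeset was dim, of the _x_at class, and differed by -0.41 with overlap. ACLY, which splits citrate into cytosolic acetyl-CoA, read 3101.0, 3166.5 and 3173.2 on the FOXA1 arrays and 2926.4, 2764.7 and 3052.7 on the control arrays (0.11, adjusted p = 0.602). ACACA, the carboxylase that makes malonyl-CoA for synthesis, read 279.4, 277.8 and 308.3 on the FOXA1 arrays and 267.5, 274.5 and 273.4 on the control arrays (0.08, adjusted p = 0.763). In both genes the groups did not overlap, yet the steps were small and further probesets brighter than 14 were mixed, at 0.14 and -0.02 for ACLY and at -0.09 for ACACA. ACSS2, which makes acetyl-CoA from acetate, went the other way with 116.3, 128.6 and 104.5 on the FOXA1 arrays and 128.8, 155.6 and 127.9 on the control arrays (-0.24, adjusted p = 0.519), overlapping by a single FOXA1 array. ACACB, the mitochondrial carboxylase, was dim and scattered, with 10.6 to 53.9 on the FOXA1 arrays and 8.9 to 33.1 on the control arrays.

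At their brightest probesets, the genes of desaturation and elongation showed no separation of the groups. The 5 genes read of 7 had a median of 0.03, with 3 above 0, 2 below and 0 without overlap, and ELOVL1 and FADS1 had only probesets shared with other symbols. SCD, the stearoyl-CoA desaturase and a main SREBP-1 target, likewise overlapped at its brightest probeset. It read 4029.7, 4074.4 and 3872.5 on the FOXA1 arrays, against 3663.4, 4023.0 and 3748.4 on the control arrays and the difference was 0.07 (SE 0.07, a ratio of 1.05 with a 95% interval of 0.938 to 1.17). ELOVL5, which lengthens polyunsaturated chains, read 2404.4, 2394.0 and 2282.1 on the FOXA1 arrays and 2524.2, 2635.2 and 2337.5 on the control arrays (-0.08, adjusted p = 0.734). ELOVL6, which lengthens palmitate, read 532.0, 501.7 and 618.0 on the FOXA1 arrays and 591.0, 528.3 and 610.7 on the control arrays (-0.07, adjusted p = 0.836), and the highest array was a FOXA1 array. Neither elongase had groups without overlap at its brightest probeset, while a second ELOVL6 probeset read 212.4, 193.0 and 199.5 on the FOXA1 arrays and 218.1, 236.5 and 266.4 on the control arrays, all lower, by -0.25. The desaturases FADS2 and FADS3 differed by 0.13 and 0.03. A dimmer SCD probeset of the _x_at class was higher on all FOXA1 arrays, by 0.26 (limma adjusted p = 0.502), while the remaining SCD probesets overlapped. The second FADS3 probeset was lower on all FOXA1 arrays, with a difference of -0.27 (limma adjusted p = 0.624).
FOXA1 and other forkhead proteins recognise the letters TGTTTAC, which were searched on both strands. They stood in 3.42% of all promoters, beside 1.96% of the 51 promoters of the lipid genes. Of the 34 lipid genes with a promoter, 1 held them, ELOVL6. Its stretch (chr4:110198725-110198784, minus strand, in the direction of the gene) is shown with the match, which lies on the opposite strand and began 143 bases before the start, in capitals.
ELOVL6: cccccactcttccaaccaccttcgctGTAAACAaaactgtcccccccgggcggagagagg
These letters are a description of the window and carry no measure of binding.

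Of the genes that activate and bind fatty acids, 4 of 5 were read and ACSL3 was not analysed here. FABP5, a fatty acid carrier common in epithelial cells, read 4237.6, 4330.3 and 3808.7 on the FOXA1 arrays, against 3402.7, 3315.9 and 3750.1 on the control arrays. The lowest FOXA1 array was just above the highest control array, and the difference was 0.24 (SE 0.08, a ratio of 1.18 with a 95% interval of 1.04 to 1.34, adjusted p = 0.299). FABP4, the fatty acid carrier of fat cells, had the highest difference of the list on low signals, 14.9, 7.3 and 10.6 on the FOXA1 arrays and 2.3, 2.4 and 7.0 on the control arrays. The difference of 1.63 had an SE of 0.67 and an adjusted p of 0.388, and the other FABP4 probeset differed by -1.27 in the opposite direction, from 6.1, 1.2 and 4.7 on the FOXA1 arrays and 7.9, 7.8 and 7.8 on the control arrays. Of the ligases that join fatty acids to CoA, ACSL4, which prefers arachidonate, read 707.7, 687.8 and 625.5 on the FOXA1 arrays and 625.4, 676.9 and 444.1 on the control arrays (0.23, adjusted p = 0.565). The groups overlapped, and the control array at 444.1 lay far from the others. ACSL1 differed by -0.02.

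Different probesets of a lipid gene often disagreed. The 40 genes had 96 probesets, of which 0 passed the threshold. Of 71 probesets brighter than 14, 67 lay within 0.5 of 0, 31 lay above 0, and 5 were higher and 4 lower at an unadjusted p under 0.05. The 25 dimmer ones ran from -1.77 to 2.39, and 10 of them lay within 0.5 of 0. Of the 19 genes with more than 1 bright probeset, 5 (DHCR7, INSIG1, HMGCS1, NPC1 and ACSL1) had bright probesets that all differed in a single direction.

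**Figure D4:**
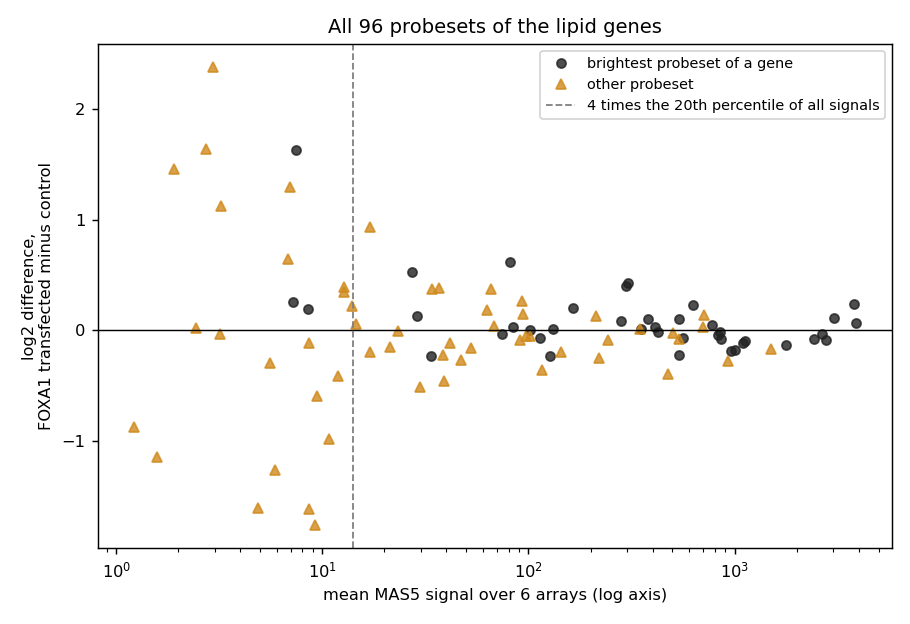
Log2 difference (y axis, FOXA1 transfected minus control) against mean signal over the 6 arrays (x axis, log scale) for the 96 probesets of the 40 lipid genes, with the brightest of each gene as circles and the others as triangles, and a dashed line at a signal of 14. Right of the line 67 of 71 probesets lie within 0.5 of 0, and left of it they spread from -1.77 to 2.39.

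A further list of 35 genes of the same pathways (sterol esterification, SREBP cleavage, liver X receptors, further elongases and dehydratases, lipogenic cofactors) was read in the same way. Of these 32 were read, 0 were called, 17 differences were positive and 15 negative, and the median was 0.02. Without overlap 4 were higher (12.5% of the 32, beside 12.5% of all genes) and 5 lower (15.6%, beside 7.25%). LPIN1, a phosphatidate phosphatase of triglyceride synthesis, had the smallest p of them, with 1136 ± 27.2 on the FOXA1 arrays and 1344 ± 30.1 on the control arrays (SD, n = 3 each), a difference of -0.24 (limma adjusted p = 0.230). HACD3 and HACD2, dehydratases of the elongation cycle, differed in opposite directions, by -0.21 and 0.23, and MID1IP1, which promotes acetyl-CoA carboxylase activity, differed by 0.40. None of these passed the threshold.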

How the data were processed

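The authors hybridised RNA to HG-U133 Plus 2.0 arrays and deposited MAS5 signals, which are linear intensities with 1 value for each probeset on each array, scaled per array to a 2% trimmed mean of about 100.01. The methods go on to describe RMA log2 conversion and SAM, and the deposited values are not RMA values. The labels name the empty plasmid pUC19, whereas the methods describe a pcDNA3 vector. Symbols came from the platform annotation. Of 54675 probesets, 62 array controls were left out, 41091 of the rest gave 1 symbol, and 1801 with several symbols were not used for genes.

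Signals were converted to log2 after 25 listed zeros were set to 0.1, and groups were compared with limma 3.58.1 (R 4.3.3, lmFit, eBayes with trend) in two-sided tests, and p-values were adjusted by Benjamini-Hochberg over 54613 probesets. Limma replaced the SAM test of the methods, and a SAM-type statistic over 20 splits was an alternative, beside quantile normalization, median centring, a floor at a signal of 3.5, leaving out dim (mean signal at or under 14.5) or _x_at probesets, the median over a gene's probesets, no trend, a replicate block and each array left out. The number of arrays limits the precision. The members and lists were chosen with earlier results of these data known. Signals of every array were given for 7 key genes (SREBF1, SREBF2, INSIG1, HMGCS1, SQLE, FASN, SCD), for genes whose arrays did not overlap, and for up to 3 genes of each role with the smallest p. MVD, ABCA1, ABCG1, ACACB and further probesets were described after their values were seen. Promoter sequences are from RefSeq, and no entry in the promoter table used here was matched for ACAT2, SQLE, ABCG1, FASN, FABP4 and FABP5.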

Additional observations from a re-analysis of the deposited data

How the results depend on the processing

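Under all 15 alternatives 0 lipid genes were called, and the lowest adjusted p of a gene with its arrays given was 0.0843 (DHCR7, with dim probesets left out). The limma adjusted p of DHCR7 rose to 0.675 under median centring and to 0.598 without the intensity trend. Median centring of each array moved the median of all genes by -0.18. It then left 10 lipid genes above 0 with a median of -0.17, 2 higher and 4 lower without overlap, beside 38.3% above 0, 4.86% higher and 8.87% lower of all genes. Of the genes with their arrays given, it turned STARD4 to -0.14, SCD to -0.11, ACACA to -0.0978, HSD17B7 to -0.0763 and ACLY to -0.0705. The median of the lipid genes minus that of all genes was -0.07 with and without centring and -0.01 after quantile normalization. With the median over a gene's probesets 4 were higher and 3 lower without overlap (11.6% and 5.46% of all genes), and SREBF1 turned to 0.43, beside SREBF2 at 0.47, MVK to -0.14, NPC1 to 0.11, ELOVL5 to 0.11, ACSL4 to -0.0533 and ACACA to -0.00257. FASN then came to 0.01, FABP4 to 0.18 and FOXA1 itself to 0.06, since dim probesets then counted. Leaving out each array in turn gave 7 to 12 higher without overlap (12 without control replicate 2, 11 without FOXA1 replicate 3), 1 to 5 lower (5 without control replicate 3, 4 without FOXA1 replicate 3), beside 15.9% to 23.4% higher and 10.3% to 12.1% lower of all genes, 18 to 22 above 0 and medians of -0.02 to 0.03. With 2 arrays in a group, lack of overlap comes more easily by construction. Over the alternatives SREBF2 ranged from 0.41 to 0.81, DHCR7 from 0.22 to 0.46 and FABP5 from 0.06 to 0.30, and 6 of the 8 genes without overlap kept their direction (not ACLY and ACACA). Arrays with the same replicate number correlated at 0.04, 0.16 and 0.11 in their deviations from the group means. FOXA1 and control arrays with different numbers correlated at -0.13 to 0.03, so the same numbers gave the highest values. Neither labels nor methods state a pairing, so the main fit used no block, and whether the numbers pair the arrays is not settled here. The replicate block called 85 probesets in the whole table and 0 lipid genes, beside 21 higher and 11 lower probesets without it. FABP4 gave no value with dim probesets left out, and HSD17B7 none with _x_at probesets left out. Signals near the floor (ABCA1, ABCG1, FABP4) limit what can be detected.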
